A study of Homo sapiens with 6 samples.

Results

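The gastric and intestinal differentiation products CTSE, LYZ, LGALS4, VIL1, TFF1, TFF3, MUC13, CLDN18, ANXA10 and AGR2 were read in AGS, an established human gastric adenocarcinoma cell line. They were taken by gene name from a table of 58735 genes, and each of the 10 names matched 1 row. The cells were labelled wild type in both groups, and both groups were transfected with an siRNA by a lipid reagent and harvested 48 h later. One group of 3 libraries received an siRNA against RBM8A (siRBM8A), the gene of the exon junction complex protein Y14, and the other group of 3 received the control siRNA (siNC). The knockdown is transient and comes from 1 cell line, and no siRNA sequence was at hand. The labels call the replicates biological without naming separate cultures, so the p-values measure the spread between these libraries.

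The mucosa of the stomach and the intestine is renewed by cells that differentiate along separate secretory and absorptive paths, and each path is known by its products. Surface mucous cells of the stomach secrete trefoil peptides and gel-forming mucin and carry the aspartic proteinase cathepsin E, gland and Paneth cells secrete lysozyme, and enterocytes build an actin-filled brush border around villin. Gastric tumours often mix gastric and intestinal products, so both kinds are looked for in lines such as AGS.

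Values are FPKM, fragments per length of exon and per library size, which allow levels of different genes to be set side by side. Between 14838527 and 16561306 fragments per library were assigned to genes. RBM8A itself was at 3.25, 2.23 and 3.38 FPKM in siRBM8A and at 15.3, 13.2 and 14.8 FPKM in siNC, with no overlap between the groups (log2 fold change -1.97, SE 0.142, adjusted p = 0.00544, limma). Without siRBM8A replicate 3 the adjusted p was 0.0544, and 25.0% of the RBM8A exon bases overlap an exon on the other strand. All 8 epithelial markers examined were expressed, with a summed level of 1659 to 2243 FPKM in siRBM8A and 1687 to 2131 FPKM in siNC. CDH1, the gene of E-cadherin and one of these 8, was low at 3.63 ± 0.262 FPKM in siRBM8A and 2.95 ± 0.204 FPKM in siNC (SD, n = 3 each). Of 10 blood cell and macrophage markers AIF1, CD74 and CSF1R averaged 1 FPKM or more, and PTPRC, their defining gene, was at 0 in every library. The 10 summed to 3.90 to 7.07 FPKM in siRBM8A and 5.95 to 7.26 FPKM in siNC. Of 7 fibroblast markers COL1A1 alone reached 1 FPKM, with sums of 3.49 to 4.53 FPKM in siRBM8A and 3.48 to 4.68 FPKM in siNC, and DCN, LUM and POSTN were at 0 in every library. None of 6 endothelial markers reached 1 FPKM, the sums being 0.150 to 0.317 FPKM in siRBM8A and 0.0795 to 0.156 FPKM in siNC, and KDR and ERG were at 0.

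Of the 10 products 7 were expressed in AGS, taken as averaging 1 FPKM or more across all libraries, and could be tested. These were CTSE, LYZ, MUC13, VIL1, TFF1, LGALS4 and AGR2. The other 3, ANXA10, CLDN18 and TFF3, stayed below 0.3 FPKM in every library. In siRBM8A the order of the mean levels was CTSE at 169 FPKM, LYZ at 98.9, MUC13 at 95.1, VIL1 at 30.9, TFF1 at 8.55, LGALS4 at 5.77 and AGR2 at 1.96 FPKM. In siNC it was CTSE at 278 FPKM, LYZ at 139, MUC13 at 86.4, VIL1 at 48.7, LGALS4 at 9.23, TFF1 at 8.07 and AGR2 at 1.94 FPKM. LYZ and MUC13 overlapped in level across the siRBM8A libraries, where LYZ ranged from 93.9 to 107 FPKM and MUC13 from 87.6 to 101 FPKM. They were apart in siNC, where LYZ ranged from 129 to 145 FPKM and MUC13 from 85.1 to 87.4 FPKM. TFF1 and LGALS4 showed the reverse arrangement. Their ranges were apart in siRBM8A, at 8.28 to 8.72 FPKM for TFF1 and 5.66 to 5.87 FPKM for LGALS4, and overlapped in siNC, at 6.30 to 11.2 FPKM for TFF1 and 8.23 to 10.9 FPKM for LGALS4.

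**Figure D1:**
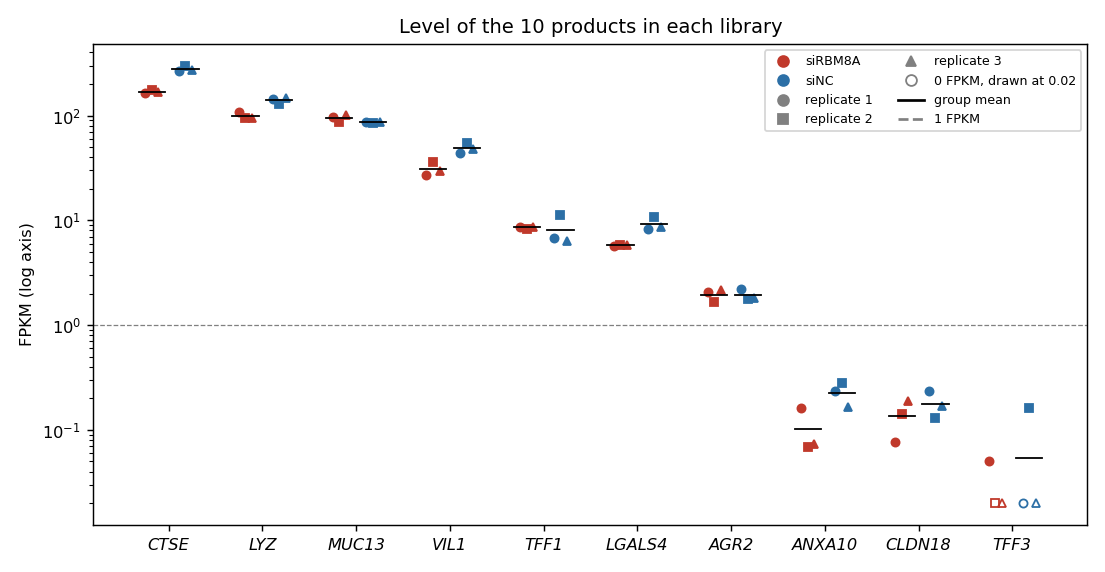
FPKM of the 10 products on a log axis in each of the 6 libraries, with siRBM8A left of siNC for each gene, marker shapes for the replicate number and black lines for group means. CTSE, VIL1, LGALS4 and LYZ have every siRBM8A point below every siNC point, as 16.5% of all tested genes do. So does ANXA10, narrowly and on few fragments. ANXA10, CLDN18 and TFF3 lie below 0.3 FPKM.

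After the RBM8A siRNA, CTSE, VIL1, LGALS4 and LYZ were lower, products with separate roles. Of the 7 tested products 4 fell and 0 rose at an adjusted p under 0.05 (limma), against 3.19% of all 12678 tested genes called lower and 2.41% called higher. These are 404 genes lower and 305 higher, and after scaling to equal FPKM sums they were 325 lower and 468 higher. The median log2 fold change was -0.49 over the 7 tested products and -0.01 over all tested genes. The products were chosen with earlier results of these data known, so neither contrast with all genes tests them as a set. The 4 that fell were at 60.5% (CTSE), 63.3% (VIL1), 62.5% (LGALS4) and 70.9% (LYZ) of their siNC mean. In bulk RNA, fewer cells that make a product and less of its RNA per cell cannot be told apart. The calls depended on the libraries used. CTSE alone was called without siRBM8A replicate 1, when 1.7% of all tested genes were called lower, and CTSE and VIL1 without siRBM8A replicate 2, when 2.91% were. None of the 4 was called without siRBM8A replicate 3 (0.0% of all tested genes called lower), siNC replicate 1 (0.0394%), siNC replicate 2 (0.497%) or siNC replicate 3 (0.0158%). With the replicate number as a block the same 4 were called lower, when 21.3% of all tested genes were called lower and 18.9% higher.

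CTSE encodes cathepsin E, an intracellular aspartic proteinase of gastric surface mucous cells that is also found in gastric tumours. It was the most abundant of the products and ranked 126 among all tested genes by mean level. The siRBM8A libraries held 162, 176 and 168 FPKM and the siNC libraries 264, 298 and 273 FPKM. The groups did not overlap, which held with siRBM8A lower for 16.5% of all tested genes. This was a log2 fold change of -0.72 (SE 0.0925, adjusted p = 0.0139, limma) on 21781 fragments in siRBM8A and 36625 in siNC, and 2.39% of tested genes had a lower fold change. The difference between libraries of the same replicate number was alike in all 3 pairs, at -0.70, -0.76 and -0.70 on the log2 scale. CTSE (ENSG00000196188) spans 206009264 to 206023909 of chromosome 1 in GRCh38, on the minus strand, and no exon of another annotated gene overlaps its exons.

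VIL1 encodes villin, which bundles the actin filaments of intestinal microvilli. It was at 27.1, 35.8 and 29.8 FPKM in siRBM8A and at 43.9, 54.7 and 47.6 FPKM in siNC. Replicate 2 was the highest library of each group, and still the highest siRBM8A library lay below the lowest siNC library. VIL1 had a log2 fold change of -0.65 (SE 0.138, adjusted p = 0.0462, limma), and the pairs gave -0.68, -0.60 and -0.66. This call was close to the threshold: the adjusted p was 0.0535 with a correction for GC content, where 16.1% of all tested genes were called lower, 0.0722 after scaling the libraries to equal medians (2.59% called lower) and 0.00150 with the replicate block. It was 0.0510 without the variance trend (2.97% called lower), 0.0516 with a robust prior (2.78%) and 0.107 without a filter on low values (0.47%). VIL1 (ENSG00000127831) spans 218419092 to 218453295 of chromosome 2 in GRCh38, on the plus strand, and 44.0% of its exon bases are shared with exons of USP37 on the other strand. Whether counting used strand is not stated in the sources used here. USP37 was far lower than VIL1, at 2.28, 1.75 and 2.19 FPKM in siRBM8A against 1.80, 1.10 and 1.36 FPKM in siNC (log2 fold change 0.35, adjusted p = 0.195, limma, and 0.0405 with the block). Its groups overlapped. Its part in the VIL1 value was not tested.

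LGALS4 encodes galectin-4, a lectin of intestinal epithelium that binds glycolipids and glycoproteins in apical membranes. The siRBM8A libraries were close together at 5.66, 5.78 and 5.87 FPKM, and the siNC libraries stood at 8.23, 10.9 and 8.60 FPKM. The siRBM8A libraries had a coefficient of variation of 1.88%, against 15.4% in siNC, where replicate 2 stood above the other two. The groups did not overlap, and the fitted log2 fold change of LGALS4 was -0.59 (SE 0.118, adjusted p = 0.0405, limma), on 738 fragments in siRBM8A and 1200 in siNC. The replicate 2 pair differed by -0.81 and the others by -0.47 and -0.48, and without siNC replicate 2 the log2 fold change was -0.48 with an adjusted p of 0.0794. LGALS4 (ENSG00000171747) spans 38801671 to 38813364 of chromosome 19 in GRCh38, on the minus strand, with no overlapping exon.

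LYZ encodes lysozyme, an enzyme that cleaves bacterial cell walls and is secreted by gastric gland cells, Paneth cells and macrophages. It was at 107, 95.5 and 93.9 FPKM in siRBM8A and at 144, 129 and 145 FPKM in siNC. The groups did not overlap, and the lowest siNC library was replicate 2. Its log2 fold change, -0.49 (SE 0.102, adjusted p = 0.0432, limma), was the smallest in size of the 4, and its pairs gave -0.42, -0.43 and -0.63. The adjusted p was 0.0524 after scaling to equal medians and 0.0628 after scaling to equal FPKM sums (2.56% of all tested genes called lower) and 0.0513 with limma-voom on fragments (3.6% called lower), so the LYZ call depended on these choices. Among the tested blood cell and macrophage markers, CD74 was at 0.934 ± 0.334 FPKM in siRBM8A and 1.98 ± 0.669 FPKM in siNC (SD, n = 3 each). Its adjusted p was 0.138, and 0.0112 with the replicate block (limma), and its groups overlapped. The other tested markers of that list did not fall. AIF1 was at 1.33 ± 0.487 FPKM in siRBM8A and 1.32 ± 0.281 FPKM in siNC. CSF1R was at 2.85 ± 0.928 and 2.55 ± 0.632 FPKM in the same order (SD, n = 3 each). PTPRC was at 0. LYZ (ENSG00000090382) spans 69348341 to 69354234 of chromosome 12 in GRCh38, on the plus strand. Exons of the antisense gene AC020656.1 cover 34.0% of its exon bases, and AC020656.1 was listed at 0 in every library.

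MUC13, TFF1 and AGR2 were expressed and were not called. MUC13 encodes a transmembrane mucin of the gastric and intestinal cell surface. It was at 96.6, 87.6 and 101 FPKM in siRBM8A and at 86.5, 85.1 and 87.4 FPKM in siNC. Every siRBM8A library lay above every siNC library, as it did for 14.8% of all tested genes, with siRBM8A replicate 2 only just above siNC replicate 3. MUC13 had a log2 fold change of 0.14 (SE 0.0936, adjusted p = 0.405, limma), with a 95% interval from -0.09 to 0.36. With the GC correction it was 0.22 and the adjusted p was 0.0206, where 15.6% of all tested genes were called higher. It was also called with the GC correction and the block together (20.1% called higher) and with limma-voom and the block (25.3%), while with the block alone the adjusted p was 0.0813. MUC13 (ENSG00000173702) spans 124905442 to 124953819 of chromosome 3 in GRCh38, on the minus strand.

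TFF1 encodes a small trefoil peptide that surface mucous cells secrete with mucin. The siRBM8A libraries were at 8.66, 8.28 and 8.72 FPKM and the siNC libraries at 6.77, 11.2 and 6.30 FPKM. siNC replicate 2 stood above all the others, so that siRBM8A lay inside the siNC range. Replicate 2 stood apart within each group across genes, not for TFF1 alone. TFF1 had a log2 fold change of 0.11 (SE 0.195, adjusted p = 0.753, limma), with a 95% interval from -0.35 to 0.57 that includes changes as large as that of LYZ in the upward direction. Without siNC replicate 2 it was 0.34 (adjusted p = 0.127). The gene has 551 bases of exon, and the values rested on only 58 to 98 fragments per library. TFF1 (ENSG00000160182) spans 42362282 to 42366594 of chromosome 21 in GRCh38, on the minus strand.

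AGR2 encodes a protein disulphide isomerase of the endoplasmic reticulum that mucin-secreting cells use to fold mucin. It was the lowest of the 7 tested products, at 2.05, 1.67 and 2.15 FPKM in siRBM8A and 2.22, 1.79 and 1.81 FPKM in siNC. The ranges overlapped over most of their width. AGR2 had a log2 fold change of 0.01 (SE 0.125, adjusted p = 0.973, limma), with a 95% interval from -0.29 to 0.30, on 269 fragments in siRBM8A and 272 in siNC. AGR2 (ENSG00000106541) spans 16791811 to 16833433 of chromosome 7 in GRCh38, on the minus strand.

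**Figure D2:**
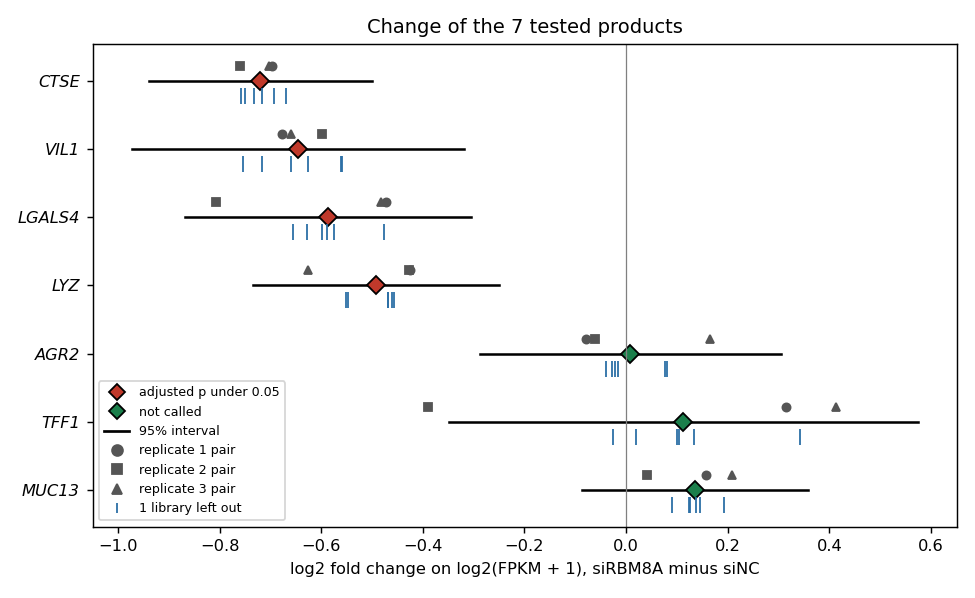
Log2 fold change of the 7 tested products on the log2(FPKM + 1) scale, siRBM8A minus siNC, with the 95% interval as a line, the differences of same-numbered libraries above it and the fits with 1 library left out as ticks below it. CTSE, VIL1, LGALS4 and LYZ lie between -0.72 and -0.49 and have all 3 pairs below 0, while the intervals of AGR2, TFF1 and MUC13 include 0.

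**Figure D3:**
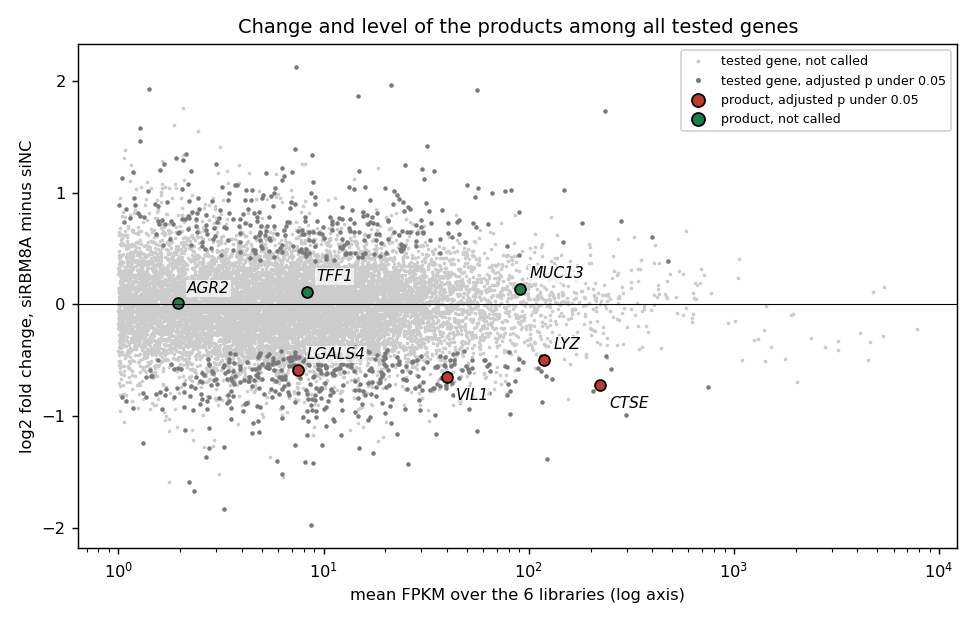
Log2 fold change against mean FPKM (log axis) for all 12678 tested genes as grey points, with the 7 tested products as large points. CTSE, LYZ and MUC13 are among the more abundant genes, and CTSE, VIL1, LGALS4 and LYZ sit in the lower part of the cloud.

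Ratios of 2 products in the same library do not depend on how the libraries are scaled, and the pairs shown were chosen after the values were seen. CTSE over MUC13 was 1.68, 2.00 and 1.66 in siRBM8A and 3.05, 3.50 and 3.13 in siNC. LYZ over MUC13 was 1.04 ± 0.0997 in siRBM8A and 1.61 ± 0.0874 in siNC (SD, n = 3 each). VIL1 over MUC13 was 0.328 ± 0.0702 in siRBM8A and 0.565 ± 0.0698 in siNC (SD, n = 3 each). LGALS4 over TFF1 was 0.675 ± 0.0225 in siRBM8A and 1.18 ± 0.198 in siNC (SD, n = 3 each). None of these 4 ratios overlapped between the groups, and each gave an exact two-sided permutation p = 0.1, the smallest that 3 against 3 libraries allow. For the ratios over MUC13 this outcome was already fixed by the separate values of the 2 products. These p-values therefore add no support. Within the products that fell, CTSE over LYZ was 1.71 ± 0.173 in siRBM8A and 2.01 ± 0.265 in siNC (SD, n = 3 each), and the groups overlapped (exact permutation p = 0.2, two-sided).

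**Figure D4:**
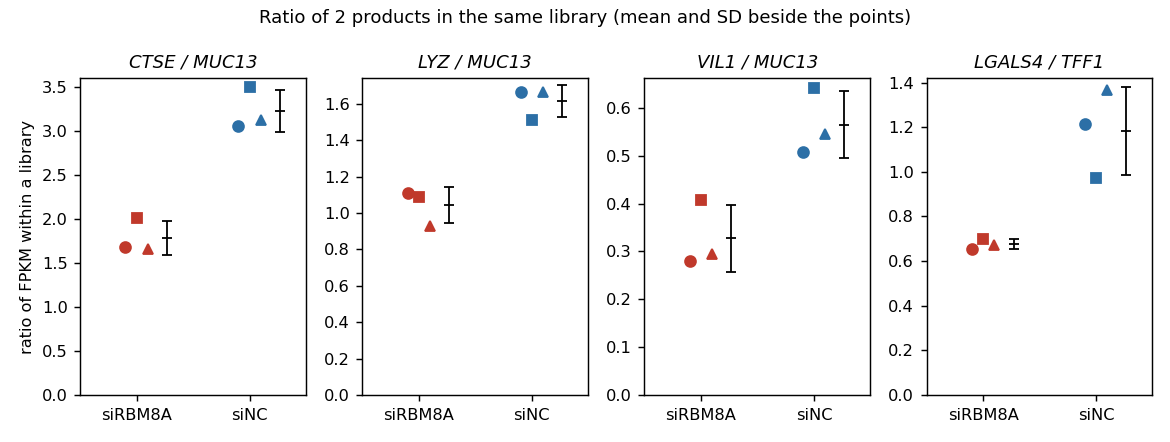
Ratio of the FPKM of 2 products within each library, with siRBM8A left of siNC, 1 point per library, marker shapes for replicates 1 (circle), 2 (square) and 3 (triangle), and the mean and SD beside the points. In all 4 panels the 3 siRBM8A libraries lie below the 3 siNC libraries, which the separate values of the 2 products had already fixed in the panels over MUC13.

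The 3 products below 1 FPKM rested on few fragments. ANXA10, a gastric annexin, had 5, 2 and 2 fragments in siRBM8A and 7, 8 and 5 in siNC, which is 0.162, 0.0680 and 0.0726 FPKM against 0.232, 0.277 and 0.165 FPKM. The groups did not overlap, but siRBM8A replicate 1 and siNC replicate 3 both rested on 5 fragments. siRBM8A replicates 2 and 3 were at or under a floor of 3 fragments, and in a fit without a filter the adjusted p was 0.312 (limma). CLDN18, whose product claudin-18 seals the gastric epithelium, had 5, 9 and 11 fragments in siRBM8A and 15, 8 and 11 in siNC, or 0.135 ± 0.0557 and 0.177 ± 0.0520 FPKM (SD, n = 3 each). The ranges overlapped, and without a filter the adjusted p was 0.690 (limma). TFF3, the trefoil peptide of intestinal goblet cells, had 1, 0 and 0 fragments in siRBM8A and 0, 3 and 0 in siNC. No library was above the floor, which is 0.151 to 0.169 FPKM for TFF3, and a difference was not detectable at this depth. TFF3 and TFF1 lie in the trefoil cluster of chromosome 21 with TFF2, whose mean was 0.0974 FPKM in siRBM8A and 0.122 FPKM in siNC. The floor covers counting error only.

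RefSeq promoter windows of GRCh38.p14 were matched for 6 of the 10 products. They run from 250 bases before to 50 bases after a start, and whether AGS uses these starts was not measured. LYZ and VIL1, which also fell, had no window, and the window of AGR2, also not called, is not printed. A contrast between products that fell and those that did not cannot be drawn from so few. The windows of CTSE and LGALS4, which fell, are shown with that of MUC13, which was not called. They were searched on both strands for letters bound by regulators of gut epithelium: TGATAA for the zinc finger factors of the GATA family, TTTAC for CDX factors, and GTTAAT for HNF1 factors. TATAAA stood for the TATA box. Capitals mark the matches, none of which overlap each other. Coordinates are chr1:206023846-206024145 (minus strand) for CTSE, chr19:38812896-38813195 (minus strand) for LGALS4 and chr3:124934702-124935001 (minus strand) for MUC13.
CTSE: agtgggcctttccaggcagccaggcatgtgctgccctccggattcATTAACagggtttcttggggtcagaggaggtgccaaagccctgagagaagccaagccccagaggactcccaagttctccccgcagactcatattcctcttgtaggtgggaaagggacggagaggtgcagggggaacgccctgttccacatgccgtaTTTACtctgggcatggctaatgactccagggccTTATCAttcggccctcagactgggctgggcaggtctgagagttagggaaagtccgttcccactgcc
LGALS4: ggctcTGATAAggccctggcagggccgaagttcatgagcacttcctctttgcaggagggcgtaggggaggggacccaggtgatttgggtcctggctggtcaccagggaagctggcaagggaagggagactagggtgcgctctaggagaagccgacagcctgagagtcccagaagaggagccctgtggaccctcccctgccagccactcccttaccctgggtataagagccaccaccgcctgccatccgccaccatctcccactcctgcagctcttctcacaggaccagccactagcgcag
MUC13: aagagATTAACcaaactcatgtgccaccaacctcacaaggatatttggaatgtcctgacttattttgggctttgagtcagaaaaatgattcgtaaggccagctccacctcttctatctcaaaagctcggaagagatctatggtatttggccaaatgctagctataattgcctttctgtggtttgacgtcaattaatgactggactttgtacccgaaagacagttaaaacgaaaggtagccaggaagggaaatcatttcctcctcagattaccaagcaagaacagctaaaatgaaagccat

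The GATA letters were found in CTSE, starting 16 bases before the start, and in LGALS4, starting 245 bases before it, and in the unexpressed ANXA10. They occur in 7.53% of 35116 such windows. The CDX letters were found in CTSE, AGR2, CLDN18 and ANXA10 and occur in 28.1% of windows, the HNF1 letters in CTSE, MUC13, CLDN18 and ANXA10 (6.88% of windows), and the TATA box in ANXA10 (11.5% of windows). A match is a description of the sequence, not of binding. Only these exact letters were searched, so a window without a match may hold a variant of them.

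The genes whose pattern over the 6 libraries was most like a product were sought among 6945 protein-coding genes averaging 5 FPKM or more, or 6946 for AGR2, by the root mean square difference of log2 values after subtracting each gene's own mean. CTSE was nearest to SORD (0.0267) and OAS1 (0.0368), VIL1 to OAS3 (0.0190), LYZ to MAP3K1 (0.0376) and DLAT (0.0485), and LGALS4 to CLDN23 (0.0529) and FOXA2 (0.0706). MUC13 was nearest to ASXL2 (0.00965) and BIRC5 (0.0189), AGR2 to IFRD1 (0.0329) and TMX2 (0.0344), and TFF1 to MSMB (0.0846) and MYL6B (0.0958). The median difference of all genes searched was 0.231 to 0.396. The levels of a product and its nearest genes come from the same 6 libraries and the same scaling.

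Other genes of the same tissues and families were read from 11 lists, which were chosen with earlier results of these data known. The lists hold 144 genes besides the products. Of these, 64 could be tested, and 2 rose and 9 fell, against 2.41% and 3.19% of all tested genes, with a median log2 fold change of -0.19. With the replicate block 7 rose and 32 fell, against 18.9% and 21.3% of all tested genes under that fit. None of these 11 calls remained without siRBM8A replicate 3, siNC replicate 1 or siNC replicate 3, and 2 remained without siNC replicate 2. Leaving out siRBM8A replicate 1 kept 4 of them, and leaving out siRBM8A replicate 2 kept 9. With all libraries, 2 remained without a filter on low values, 9 with equal medians (CTSH and GALNT10 lost), 9 with equal FPKM sums and 10 with the GC correction (CTSV lost, adjusted p = 0.0752, limma). ANXA3 was not called with equal sums, without the variance trend, with a robust prior or with limma-voom. AGS expressed few gastric products: beside CTSE and TFF1, only CAPN8 and MUC1 of the surface mucous list of 16 genes were tested, CAPN8 at 1.42 ± 0.190 FPKM in siRBM8A and 1.47 ± 0.111 FPKM in siNC, and MUC1 at 24.0 ± 2.62 and 27.4 ± 3.20 FPKM in the same order (SD, n = 3 each). Neither was called, and MUC1 had an adjusted p of 0.0246 with the block and of 0.0206 with the GC correction (limma). Of the gland list beside LYZ only GAST, the gastrin gene, was tested and it was not called. PGC, the pepsinogen C gene, missed the filter at 0.320, 0.578 and 0.292 FPKM in siRBM8A and 0.831, 1.61 and 1.18 FPKM in siNC, without overlap. GHRL, the ghrelin gene of the same list, was higher without overlap, at 0.371, 0.567 and 0.414 FPKM in siRBM8A and 0.146, 0.365 and 0.290 FPKM in siNC, and so was SULT1C2 of the surface mucous list, at 1.11 ± 0.0762 FPKM in siRBM8A and 0.747 ± 0.0876 FPKM in siNC (SD, n = 3 each). Both were named after their values were seen, and neither was tested.

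Around VIL1, LGALS4 and MUC13, the brush border and absorptive list had 8 other tested genes, of which 0 rose and 0 fell, with 7 of 8 below 0 and a median of -0.27. With the replicate block 4 of the 8 fell, where 21.3% of all tested genes were called lower. EZR, which links membranes to actin, was at 186, 204 and 194 FPKM in siRBM8A and 232, 269 and 247 FPKM in siNC (log2 fold change -0.35, adjusted p = 0.0793, limma). Its adjusted p was 0.00394 with the block and 0.00228 with the GC correction alone (limma). CDH17, an intestinal cadherin, was at -0.30 on the log2 scale, with an adjusted p of 0.319 and of 0.0136 with the block (limma), and ranged from -0.42 to -0.14 with 1 library left out. PLS1, the actin bundler fimbrin of the same microvilli, was named after its values were seen, at 6.33 ± 1.66 FPKM in siRBM8A and 12.5 ± 2.37 FPKM in siNC (SD, n = 3 each, adjusted p = 0.0522, limma, and 0.00168 with the block). In the villin and gelsolin family, 0 of the 5 relatives of VIL1 were called, among them the abundant CAPG and FLII, whose fitted log2 fold changes were -0.0038 and -0.07 and turned sign in some alternatives. With the block GSN and VILL, named after their values were seen, were called lower. AVIL of the same family was higher without overlap, at 0.670, 0.712 and 0.715 FPKM in siRBM8A and 0.480, 0.394 and 0.325 FPKM in siNC. So was GPA33 of the brush border list, at 0.331, 0.443 and 0.493 FPKM in siRBM8A and 0.0376, 0.294 and 0.262 FPKM in siNC. In that list ESPN, ANPEP and LCT were lower without overlap, LCT on 5 fragments in all. AVIL, GPA33, ESPN, ANPEP and LCT missed the filter, were named after their values were seen and were not tested.

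The goblet and Paneth cell list beside LYZ, AGR2 and TFF3 had 5 tested genes, of which 2 fell and 1 rose. PLA2G2A, the secreted phospholipase of Paneth cells, was at 511, 586 and 576 FPKM in siRBM8A and 868, 1001 and 928 FPKM in siNC (log2 fold change -0.74, adjusted p = 0.0160, limma). SPINK1, a secreted trypsin inhibitor, fell to 2.58 ± 0.243 FPKM in siRBM8A, against 6.48 ± 0.686 FPKM in siNC (SD, n = 3 each). REG1A, a secreted lectin with the close paralog REG1B that may share its reads, rose to 28.6 ± 1.61 FPKM in siRBM8A, against 18.3 ± 1.94 FPKM in siNC (SD, n = 3 each). REG4 was at 43.6 ± 1.87 FPKM in siRBM8A and 38.9 ± 2.55 FPKM in siNC and was not called. Products of the same cell types thus stood on both sides of 0.

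Relatives of the products within their protein families were read in the same way. Counts without the replicate block stand against 3.19% of all tested genes called lower and 2.41% called higher. Counts with the block stand against 21.3% of all tested genes called lower and 18.9% called higher under it. Of 9 other tested cathepsins 1 rose and 2 fell, with a median of 0.23: the lysosomal CTSH was at 28.6 ± 2.44 FPKM in siRBM8A and 19.9 ± 1.21 FPKM in siNC, while CTSV and CTSS had log2 fold changes of -0.48 and -0.83. CTSD and CTSB, the most abundant others, were at 0.31 and 0.23 on the log2 scale and were not called without the block (adjusted p = 0.00578 and 0.0158 with it, limma), under which 5 of the 9 were called higher. With 1 library left out CTSD ranged from 0.17 to 0.45 and CTSB from 0.13 to 0.31. Of 5 other galectins LGALS7, whose near-identical copy may share its reads, fell by 1.13 on the log2 scale, and the far more abundant LGALS1 and LGALS3 were not called (median of the 5, -0.30). With the block 4 of the 5 were called lower, LGALS1 included at an adjusted p of 0.0468 (limma), while its log2 fold change of -0.19 ranged from -0.40 to -0.01 with 1 library left out. Of 7 other annexins ANXA3 fell by 0.56 on the log2 scale, and ANXA2 was not called (median -0.15; adjusted p of ANXA2 0.00765 with the block, limma, when 3 of the 7 were called lower). Among 2 other tested membrane mucins, MUC1 and MUC20, 0 were called, and their median was 0.01. With the block MUC1 was called lower and MUC20 was not. MUC4 missed the filter at 0.0716 ± 0.0263 FPKM in siRBM8A and 0.277 ± 0.0749 FPKM in siNC, without overlap (SD, n = 3 each). It was named after its values were seen and was not tested. The other untested membrane mucins overlapped between the groups or were at 0. Of 7 other claudins CLDN2, a pore-forming claudin, fell to 3.85 ± 0.426 FPKM in siRBM8A, against 10.6 ± 1.06 FPKM in siNC, CLDN4 and CLDN7 were not called, and the median was -0.37 (SD, n = 3 each). With the block 4 of the 7 were called lower. Of 14 enzymes that build mucin O-glycans 0 rose and 2 fell, GALNT7 by 0.78 and GALNT10 by 0.45 on the log2 scale, and the median was -0.30. With the block 9 of the 14 were called lower and 1 higher. B3GNT3 was at -0.18 and GALNT2 at 0.15 on the log2 scale, with adjusted p-values of 0.429 and 0.418 without the block and 0.0233 and 0.0487 with it (limma). B3GNT3 was also called with the GC correction (-0.28, adjusted p = 0.00647, limma), and GALNT2 was not called with the GC correction and the block together (0.08, adjusted p = 0.127, limma).

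**Figure D5:**
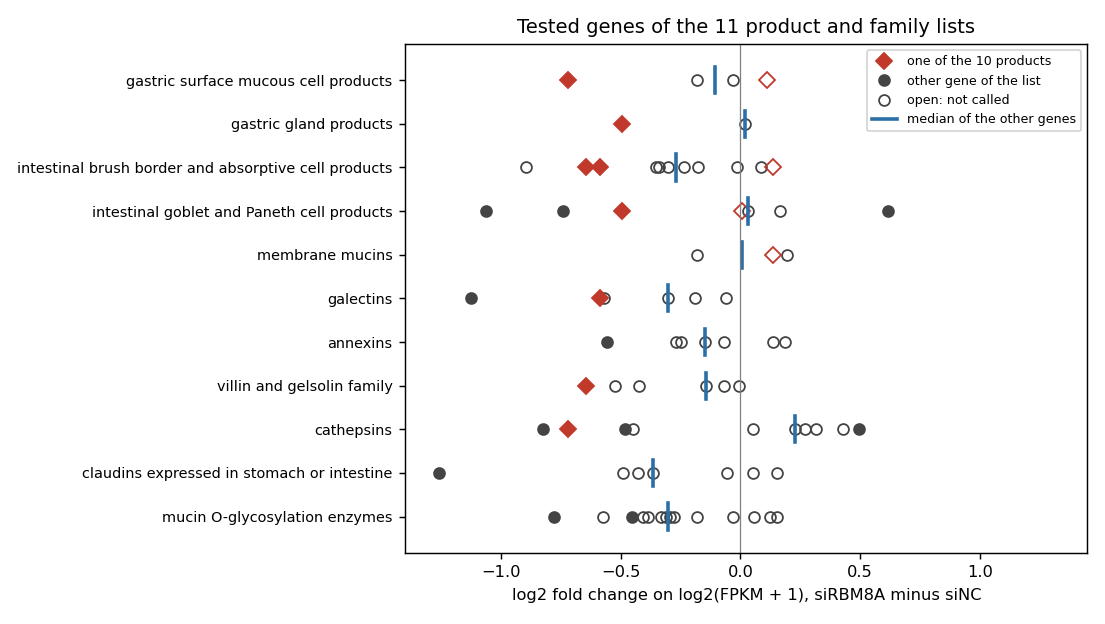
Log2 fold change, siRBM8A minus siNC, of the tested genes of the 11 lists, with the products as red diamonds, other genes as dark circles, filled markers for an adjusted p under 0.05 and blue bars for the median of the other genes. CTSE, VIL1, LGALS4 and LYZ are filled and left of 0, while REG1A and CTSH are filled and right of 0.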

How the data were processed

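The libraries were made from polyadenylated RNA, per the labels' protocols. The authors deposited FPKM, 1 column per library; HISAT2, StringTie and GRCh38 are named, with no role or order, per the submitters' processing notes. How shared reads were handled is not stated in the sources used here. All 58735 gene identifiers matched GENCODE 29, which gave coordinates and exon lengths. FPKM times exon length gave whole fragments for 100% of nonzero values (tolerance 0.001 fragments), and the fragments so recovered gave depth, low counts and 1 alternative.

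siRBM8A was compared with siNC, grouped by title, with limma 3.58.1 (R 4.3.3) on log2(FPKM + 1), with variance trend, for the 12678 genes that averaged 1 FPKM or more. Tests were two-sided, with Benjamini-Hochberg adjustment over all tested genes and a threshold of 0.05. This log2 scale understates the change of low genes. Deviations from the group means correlated between same-numbered libraries at 0.507, 0.663 and 0.102. The numbers were therefore taken to pair libraries in the pair differences and in the replicate block, an alternative. The main fit had no block, so its p-values do not use this pairing. The pairing comes from the data and is weak for replicate 3, which correlated more with replicate 1 of the other group (0.258 and 0.187). Replicate 2 differed most from the other libraries of its group, over 15011 to 15326 genes. In siRBM8A the chi-square of fragments per degree of freedom was 54.6 and 29.0 for its pairs, against 7.80 for replicates 1 and 3. In siNC it was 27.5 and 15.9, against 4.29. The GC correction subtracted a loess curve (span 0.3) on transcript GC content from each library.

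From each list, up to 3 called genes with the smallest adjusted p and the 2 most abundant were named. The products and the lists were chosen with earlier results of these data known.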

Additional observations from a re-analysis of the deposited data

How the results depend on the processing

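CTSE kept its call in all 14 alternatives that used all 6 libraries, LGALS4 in 12, LYZ in 10 and VIL1 in 9, always below 0. LYZ lost it without a filter (log2 fold change -0.49), with equal medians (-0.46), equal FPKM sums (-0.45) and limma-voom on fragments (-0.46). LGALS4 lost it without a filter (-0.59) and with equal medians (-0.56). VIL1 lost it without a filter (-0.65), with equal medians (-0.61), without the variance trend (-0.65), with a robust prior (-0.65) and with the GC correction (-0.56). The count of products called lower was 1 without a filter and 1 with equal medians. The count called higher was 1 with the GC correction (MUC13, 0.22), 1 with that and the replicate block (0.22) and 1 with limma-voom and the replicate block (0.17). The replicate block alone changed no call of a product; the changed calls of list genes stand beside them.

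Over all genes, the 305 calls upward became 119 without a filter, 468 with equal FPKM sums, 2392 with the replicate block, 1977 with the GC correction, 2547 with both, 558 with limma-voom and 3211 with limma-voom and the block. The 404 downward became 149 without a filter, 2704 with the block, 2047 with the GC correction, 2632 with both and 2931 with limma-voom and the block. With equal FPKM sums 325 were downward, which turned the balance of directions.

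Leaving out 1 library gave log2 fold changes of -0.76 to -0.67 for CTSE, -0.55 to -0.46 for LYZ, -0.66 to -0.48 for LGALS4, -0.75 to -0.56 for VIL1, 0.09 to 0.19 for MUC13, -0.0249 to 0.34 for TFF1, -0.0393 to 0.0806 for AGR2 and -2.05 to -1.83 for RBM8A. It gave 0 to 2 products called lower, and 2 to 259 upward and 0 to 369 downward calls over all genes. Each of the 4 products kept an unadjusted p under 0.05 in 6 of 6 such fits (limma). The share of all tested genes that did the same was not counted, so this does not set the 4 products apart from other genes.

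Signs turned for genes near 0. CAPG was 0.0293 with equal medians, 0.0415 with equal sums, 0.0283 with limma-voom and 0.0308 with limma-voom and the block, and -0.19 to 0.15 with a library left out. CLDN4 was -0.0379 with the GC correction, with or without the block, and -0.16 to 0.21 with a library left out. GAST was -0.0825 with the GC correction, with or without the block, and -0.21 to 0.31 with a library left out. With a library left out CAPN8 was -0.0815 to 0.0310, CLDN7 -0.13 to 0.0206 and FLII -0.25 to 0.0694. The causes were not tested.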
